A study of Homo sapiens with 4 samples.

Results

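The transcripts described here encode 10 proteins of the lysosomal membrane: the glycoproteins LAMP1, LAMP2 and CD68, the tetraspanin CD63, the sorting receptor SCARB2, the small membrane proteins LAPTM4A and LAPTM4B, the channel MCOLN1, the exchanger CLCN7 and TMEM192. They were chosen by gene name, with earlier results of these data known. All 10 names matched exactly 1 of the 60617 genes listed for each library. Messenger RNA was sequenced from U87MG, an established human glioblastoma cell line, kept for 14 days under sphere conditions. In 2 libraries the spheres had been given abemaciclib, an inhibitor of the cell cycle kinases CDK4 and CDK6, and the other 2 came from untreated spheres. DMEM/F12 served as the base medium in both groups, to which B27 (2%), N2, bFGF (20 ng/ml) and EGF (20 ng/ml) had been added. Neither the dose of abemaciclib nor any vehicle is given in the sources used here. A single established line stands for the tumour in every library, and the labels do not say whether the 2 libraries of a group came from separate cultures. The p-values below thus reflect spread among libraries that may differ for technical reasons alone.

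The lysosome is the acidic compartment in which cells break down material delivered by endocytosis and autophagy. Its limiting membrane carries heavily glycosylated proteins that line the inner face, together with channels and transporters that move ions, metabolites and lipids. Transcription factors of the MiT/TFE family (such as TFEB, TFE3 and MITF) are known to bind short E-box-type elements near the start of many lysosomal genes. These membrane proteins are made in the endoplasmic reticulum and reach the lysosome through the Golgi and endosomes.

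The libraries held 23684260 and 33226884 expected counts after abemaciclib, against 27485206 and 33418075 untreated. Levels below are CPM, the counts of a gene scaled to a common library total, with TMM scaling between libraries. Mitochondrially encoded genes took 11.8% and 11.7% of the counts after abemaciclib, against 4.27% and 4.66% untreated. All 13 mitochondrially encoded mRNAs were higher (median log2 fold change 1.48). The vimentin gene VIM, expressed by glioblastoma lines of this kind, stood at 4326 and 4404 CPM after abemaciclib, against 6245 and 5674 CPM untreated. With it, all 7 markers of the line were lower (median -0.77). CDKN2A, which is deleted in U87MG, had 0 counts in all 4 libraries.

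All 10 transcripts were higher after abemaciclib and passed the test across all genes (edgeR's quasi-likelihood F test, adjusted p below 0.05 by Benjamini-Hochberg). With every log2 fold change above 0, none could be called lower at any threshold. DESeq2 called all 10 higher as well. As background, 38.0% of the 17207 tested genes passed in that direction, 39.3% passed in the other, and 77.3% passed in either. The members' log2 fold changes ran between 0.14 and 1.70 with a median of 1.11, where the median over all tested genes was -0.01. A rise of at least 2-fold was seen in 6 of the 10, against 13.8% of all tested genes. Both abemaciclib libraries lay above both untreated libraries for all 10 genes, which held for 43.4% of tested genes. The expected counts behind these values ran between 289.2 in the poorest library of TMEM192 and 68779 in the richest of CD63. In RNA from whole spheres, more transcript per cell and more cells that express a gene cannot be told apart. The mitochondrial share moved with the groups too. When mitochondrially encoded genes were left out and the libraries scaled by the remaining total, the members' log2 fold changes were between 0.31 and 1.87 and the median over all genes was 0.16.

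**Figure D1:**
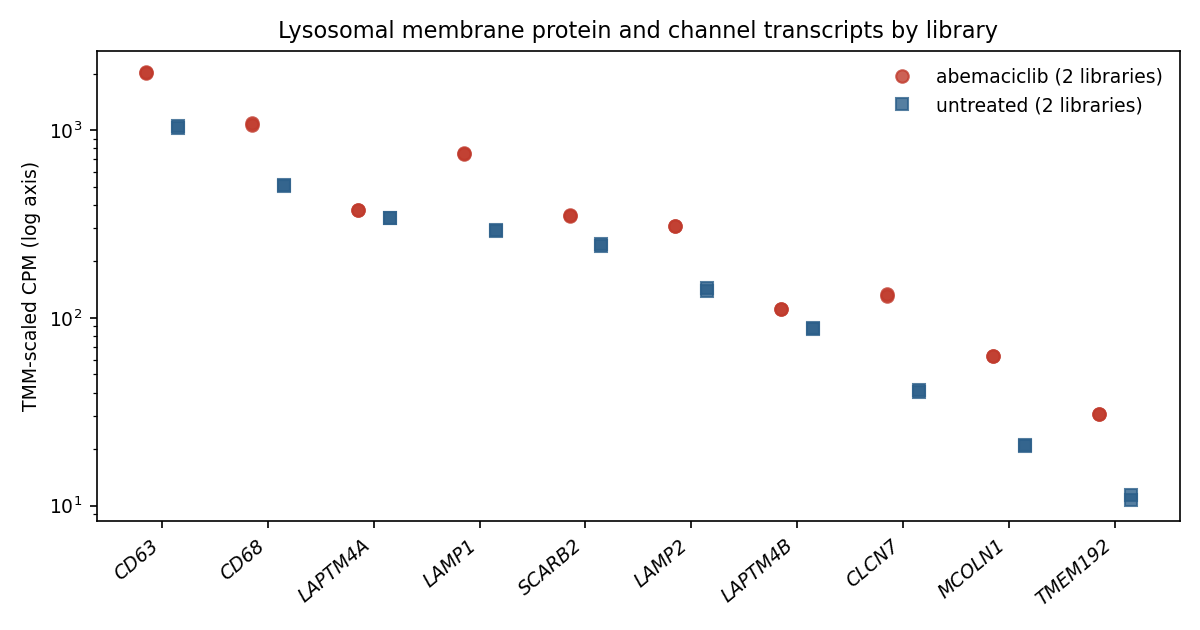
TMM-scaled CPM (log axis) of the 10 transcripts, ordered by untreated level, with circles for the 2 abemaciclib libraries and squares for the 2 untreated libraries. The circles lie above the squares for every gene, by the least for LAPTM4A (377.4 and 374.4 CPM against 340.6 and 341.8 CPM).

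LAMP1 and LAMP2 are the most abundant glycoproteins of the lysosomal membrane, and a splice form of LAMP2 is the receptor of chaperone-mediated autophagy. LAMP1 (ENSG00000185896, GRCh38 chromosome 13, 113297241 to 113323672, plus strand) stood at 752.1 and 743.9 CPM after abemaciclib, against 293.1 and 290.3 CPM untreated. Both treated libraries were far above both untreated ones, and replicates lay close together. The rise was 2.56-fold, a log2 fold change of 1.36 ± 0.03 (SE, edgeR adjusted p = 3.32e-27). LAMP2 (ENSG00000005893, chromosome X, 120427827 to 120469365, minus strand) stood at 310.2 and 308.4 CPM after abemaciclib, against 145.03 and 139.3 CPM untreated. The groups did not overlap, and the rise was 2.18-fold (1.12 ± 0.03, edgeR adjusted p = 4.89e-24). Expected counts per gene do not separate the splice forms of LAMP2. Neither gene overlaps another annotated gene.

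CD68, also called macrosialin, is a glycoprotein of the same family and is widely used as a macrophage marker. It stood at 1099 and 1072 CPM after abemaciclib, against 512.1 and 502.2 CPM untreated, with no overlap between the groups. It rose 2.14-fold (log2 fold change 1.10 ± 0.03, edgeR adjusted p = 8.76e-25). The gene (ENSG00000129226, chromosome 17, 7579467 to 7582113, plus strand) overlaps AC016876.2 on its own strand, which had 46.99 and 48.4 CPM after abemaciclib and 33.8 and 35.5 CPM untreated. On the other strand lies AC016876.1, at 0.623 and 0.472 CPM after abemaciclib and 5.40 and 4.79 CPM untreated. Strand could not separate reads of CD68 from those of AC016876.2. The libraries were made by a stranded method, but whether the counting used strand is not stated in the labels or headers. How far reads of CD68 and AC016876.1 were kept apart is therefore not known. Of 20 other genes used to mark microglia and macrophages 8 passed the filter on low counts, and 2 of these were higher and 6 lower, with a median log2 fold change of -0.85. Both that rose were low. CD163, a scavenger receptor, had 1.29 and 1.504 CPM after abemaciclib, against 0.407 and 0.275 CPM untreated (2.05 ± 0.39, edgeR adjusted p = 2.14e-05). PTPRC, the leukocyte antigen CD45, had 0.747 and 0.413 CPM after abemaciclib, against 0.148 and 0.0916 CPM untreated (2.21 ± 0.59, edgeR adjusted p = 0.00111). PTPRC lost the call with DESeq2 (adjusted p = 0.0624) and in edgeR without abemaciclib replicate 1 (adjusted p = 0.0567). The summed level of the 20 was 152.8 and 149.5 CPM after abemaciclib and 213.8 and 215.4 CPM untreated, most of it TMEM119 (138.2 and 135.1 CPM, against 189.6 and 191.8 CPM). AIF1 had 0 counts in every library. Every library is labelled as the U87MG line alone, and the cause of the rise of CD68 was not tested.

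CD63, a tetraspanin of late endosomes, lysosomes and exosomes, was the most abundant of the 10. It stood at 2039 and 2029 CPM after abemaciclib, against 1032 and 1057 CPM untreated. The groups did not overlap, and the difference was 1.95-fold (log2 fold change 0.96 ± 0.03, edgeR adjusted p = 2.22e-23). CD63 (ENSG00000135404, chromosome 12, 55725323 to 55729707, minus strand) overlaps AC009779.2 on the other strand, which stayed between 6.11 and 6.68 CPM in all libraries. The 10 transcripts together summed to 5264 and 5218 CPM after abemaciclib and 2724 and 2740 CPM untreated. CD63 held 38.7% and 38.9% of that sum after abemaciclib and 37.9% and 38.6% untreated. Its share of the sum thus differed little between the groups.

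SCARB2, also called LIMP-2, is a receptor that sorts cargo to the lysosome. It stood at 350.5 and 352.04 CPM after abemaciclib, against 241.6 and 248.8 CPM untreated. It rose 1.43-fold (log2 fold change 0.52 ± 0.03, edgeR adjusted p = 6.99e-16), one of the smaller changes among the 10. The groups did not overlap. SCARB2 (ENSG00000138760, chromosome 4, 76158733 to 76234536, minus strand) overlaps FAM47E on the other strand, which had at most 0.264 CPM.

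LAPTM4A and LAPTM4B are related small membrane proteins of late endosomes and lysosomes, and LAPTM4B is often raised in carcinomas. They changed least. LAPTM4A (ENSG00000068697, chromosome 2, 20032650 to 20052028, minus strand) stood at 377.4 and 374.4 CPM after abemaciclib, against 340.6 and 341.8 CPM untreated. This is 1.10-fold (log2 fold change 0.14 ± 0.03, edgeR adjusted p = 1.14e-04), and 43.2% of all tested genes had a larger log2 fold change. With mitochondrially encoded genes left out its log2 fold change was 0.31, and it lay 0.15 above the median of all genes under either scaling. LAPTM4B (ENSG00000104341, chromosome 8, 97775057 to 97853013, plus strand) stood at 111.03 and 110.97 CPM after abemaciclib, against 86.8 and 87.97 CPM untreated, a rise of 1.27-fold (0.34 ± 0.04, edgeR adjusted p = 5.99e-10). Both were separated by group in spite of the small change, because replicates differed by so little. Its pseudogenes LAPTM4BP1 and LAPTM4BP2 held at most 4 counts in any library.

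Ion movement across the membrane was represented by MCOLN1, also called TRPML1, a cation channel that releases lysosomal calcium and is mutated in mucolipidosis type IV, and by CLCN7, a chloride/proton exchanger whose loss causes osteopetrosis. These changed most. CLCN7 (ENSG00000103249, chromosome 16, 1444934 to 1475580, minus strand) stood at 130.9 and 133.7 CPM after abemaciclib, against 41.4 and 40.3 CPM untreated. It rose 3.24-fold (log2 fold change 1.70 ± 0.04, edgeR adjusted p = 2.61e-26), and 5.85% of tested genes had a larger log2 fold change. MCOLN1 (ENSG00000090674, chromosome 19, 7522626 to 7534009, plus strand) stood at 62.7 and 62.9 CPM after abemaciclib, against 20.8 and 20.9 CPM untreated, a rise of 3.01-fold (1.59 ± 0.05, edgeR adjusted p = 4.14e-22). MCOLN1 overlaps PNPLA6 on the same strand. PNPLA6 had a difference in the other direction, with 120.2 and 121.3 CPM after abemaciclib and 179.4 and 175.6 CPM untreated. MCOLN1 also overlaps AC008878.2 on that strand, at 0.477 and 0.510 CPM after abemaciclib and 1.39 and 1.47 CPM untreated. Strand could not separate reads of MCOLN1 from those of either gene. The annotated genes that overlap CLCN7 held at most 1 count in any library.

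TMEM192 is a protein of the lysosomal membrane that is often tagged to purify intact lysosomes. It had the lowest level of the 10, at 30.9 and 30.9 CPM after abemaciclib, against 10.7 and 11.4 CPM untreated. It rose 2.79-fold (log2 fold change 1.48 ± 0.08, edgeR adjusted p = 1.90e-17), with the largest standard error of the 10. TMEM192 (ENSG00000170088, chromosome 4, 165070608 to 165208549, minus strand) overlaps KLHL2 on the other strand, at 11.9 and 11.4 CPM after abemaciclib and 12.5 and 13.5 CPM untreated. That neighbour's level was similar to the untreated level of TMEM192, with the same doubt about strand.

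**Figure D2:**
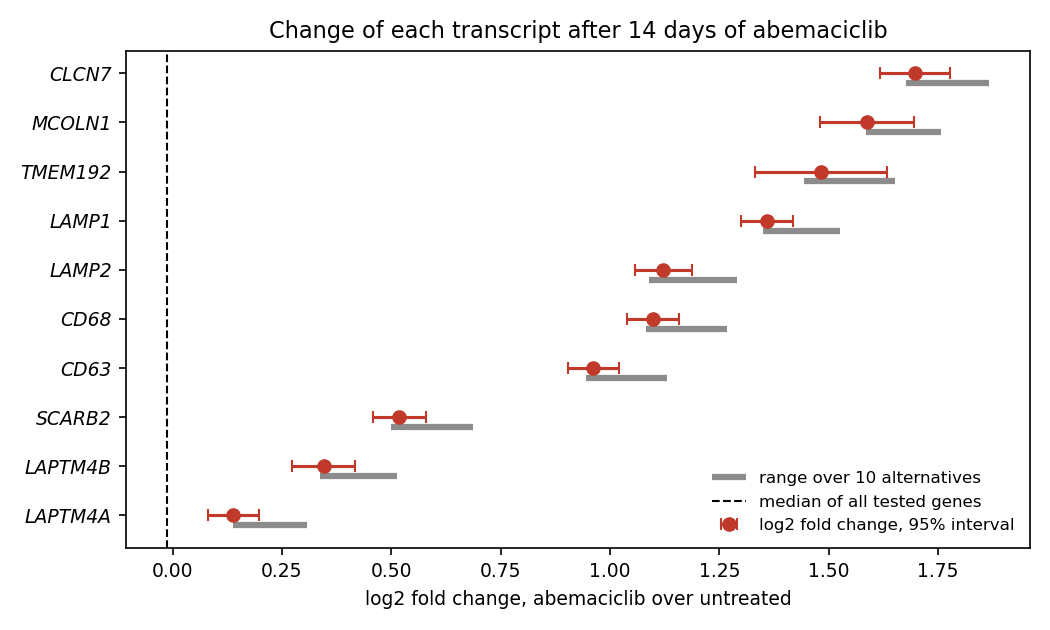
Log2 fold change of each transcript, abemaciclib over untreated (points, with 95% intervals), with the range over 10 alternative fits as a grey bar and the median of all tested genes as a dashed line at -0.01. The values form an upper group of 7 genes between 0.96 (CD63) and 1.70 (CLCN7) and a lower group with SCARB2 (0.52), LAPTM4B (0.34) and LAPTM4A (0.14).

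Levels of different genes were compared per kb of annotated exon. After abemaciclib the order was CD63 (772.4 CPM per kb), CD68 (496), LAPTM4A (193.2), LAMP1 (130.3), LAMP2 (55.97), LAPTM4B (34.7), SCARB2 (18.2), CLCN7 (16.3), MCOLN1 (15.9) and TMEM192 (3.02). Untreated it was CD63 (396.6 CPM per kb), CD68 (231.7), LAPTM4A (175.3), LAMP1 (50.8), LAPTM4B (27.3), LAMP2 (25.7), SCARB2 (12.7), MCOLN1 (5.28), CLCN7 (5.03) and TMEM192 (1.08). Thus LAMP2 stood above LAPTM4B after abemaciclib and below it untreated, and CLCN7 and MCOLN1 changed places as well. Replicates of neighbours in either order did not overlap. The order rests on which length is used, however. With the longest annotated transcript in place of the union of exons, SCARB2 came to 60.4 CPM per kb after abemaciclib and 42.2 CPM per kb untreated and CD63 to 1649 and 847.0 CPM per kb. CLCN7 (27.7 and 28.3 CPM per kb) and MCOLN1 (27.8 and 27.9 CPM per kb) then overlapped after abemaciclib, and LAMP2 stood above LAPTM4B in both groups (76.8 and 34.98 CPM per kb after abemaciclib, 35.3 and 27.5 CPM per kb untreated).

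Ratios within a library do not depend on how libraries are scaled. LAMP1 over LAMP2, per kb of exon, was 2.33 and 2.32 after abemaciclib, against 1.95 and 2.01 untreated. LAPTM4B over LAPTM4A was 0.179 and 0.180 after abemaciclib, against 0.155 and 0.157 untreated. In both pairs the treated libraries lay above the untreated ones. CD68 over LAMP1 went the other way, at 3.83 and 3.78 after abemaciclib, against 4.58 and 4.54 untreated. CLCN7 over MCOLN1 was 1.02 and 1.04 after abemaciclib, against 0.968 and 0.939 untreated. OSTM1 encodes the beta subunit that CLCN7 needs to be stable, and it stood at 90.99 and 93.95 CPM after abemaciclib, against 26.9 and 27.3 CPM untreated (1.77 ± 0.05, edgeR adjusted p = 4.69e-25). OSTM1 over CLCN7 was 1.06 and 1.07 after abemaciclib, against 0.990 and 1.03 untreated, so the transcripts of exchanger and subunit kept nearly the same proportion. With 2 libraries a group an exact permutation test of such a ratio cannot go below p = 0.333, so none was run.

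**Figure D3:**
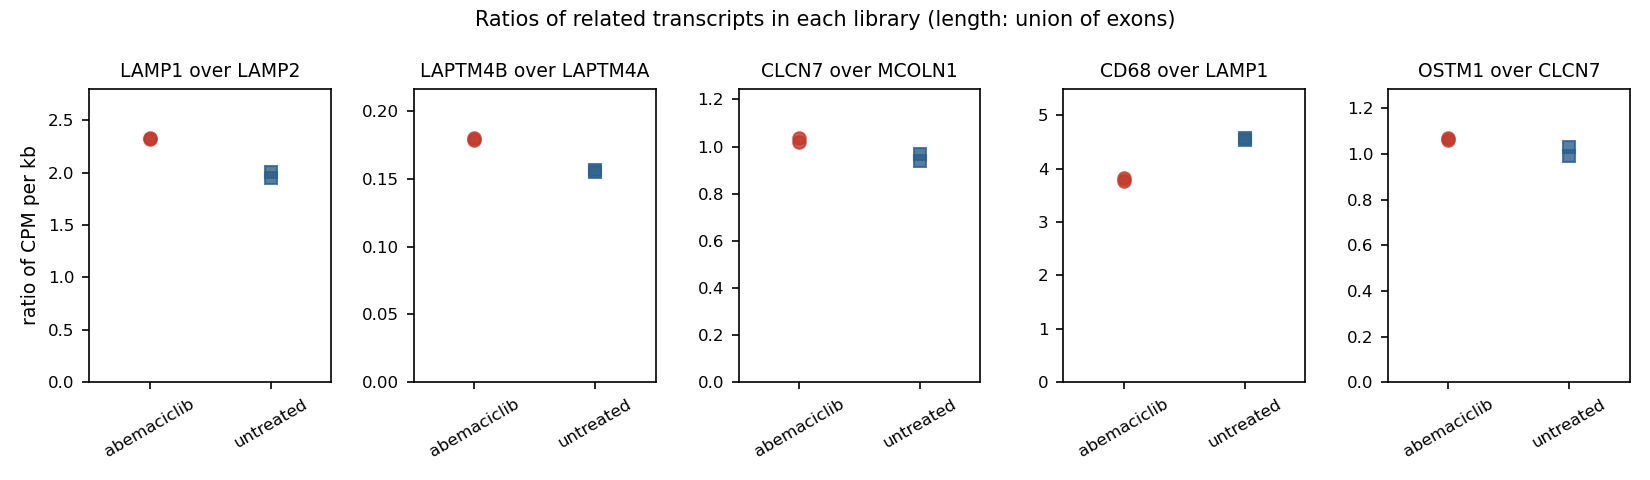
Ratio of CPM per kb of exon for 5 pairs of transcripts in each library (circles, the 2 abemaciclib libraries; squares, the 2 untreated libraries; axes start at 0). The circles lie below the squares for CD68 over LAMP1 (3.83 and 3.78 against 4.58 and 4.54) and above them in the other 4 pairs, and OSTM1 over CLCN7 lay between 0.990 and 1.07 in all 4 libraries.

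The promoters of the members were searched for the E-box-type letters that MiT/TFE factors are known to bind. The windows were RefSeq's, from 250 bases before to 50 bases after an annotated start on GRCh38.p14, and 8 of the 10 members matched one. Shown here are the 250 bases before the start, 5′ to 3′ on the gene's strand, for LAMP1, for the channel and the exchanger that rose furthest, and for LAPTM4A, which changed least. Capitals mark the E-box CACGTG. They lie at chr13:113296989-113297238 (LAMP1, plus strand), chr19:7522374-7522623 (MCOLN1, plus strand), chr16:1475029-1475278 (CLCN7, minus strand) and chr2:20051629-20051878 (LAPTM4A, minus strand). For CLCN7 and LAPTM4A the start used by RefSeq lies inside the GENCODE span of the gene given above, and so do these windows.
LAMP1: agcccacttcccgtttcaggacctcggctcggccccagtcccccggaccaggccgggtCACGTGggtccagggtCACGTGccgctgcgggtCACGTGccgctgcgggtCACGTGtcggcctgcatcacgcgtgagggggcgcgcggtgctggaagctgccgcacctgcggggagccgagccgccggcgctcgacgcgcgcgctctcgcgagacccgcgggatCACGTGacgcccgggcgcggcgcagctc
MCOLN1: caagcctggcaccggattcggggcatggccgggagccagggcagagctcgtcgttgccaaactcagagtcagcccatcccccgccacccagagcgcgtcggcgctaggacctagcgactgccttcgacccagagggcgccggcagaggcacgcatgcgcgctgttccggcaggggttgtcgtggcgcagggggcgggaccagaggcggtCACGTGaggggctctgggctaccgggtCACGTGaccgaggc
CLCN7: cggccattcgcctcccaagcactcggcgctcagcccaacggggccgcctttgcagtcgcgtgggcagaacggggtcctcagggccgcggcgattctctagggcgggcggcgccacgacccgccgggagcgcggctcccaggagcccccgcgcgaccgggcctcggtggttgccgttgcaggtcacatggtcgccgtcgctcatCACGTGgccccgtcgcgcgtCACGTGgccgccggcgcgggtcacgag
LAPTM4A: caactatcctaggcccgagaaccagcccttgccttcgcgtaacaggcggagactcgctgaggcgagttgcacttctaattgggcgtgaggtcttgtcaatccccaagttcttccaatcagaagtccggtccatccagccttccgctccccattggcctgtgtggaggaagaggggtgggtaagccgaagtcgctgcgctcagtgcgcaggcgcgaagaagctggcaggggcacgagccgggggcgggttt

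The whole LAMP1 window held 6 E-boxes, of which 1 begins at the last base before the start and is not capitalised above. MCOLN1 and CLCN7 held 2 each, and LAPTM4A 0. In each of these 10 E-boxes the core was extended to TCACGTG on at least 1 strand, a form found in the element shared by many lysosomal genes. Over all 35116 promoter windows, 7.26% held CACGTG and 3.71% held TCACGTG or its reverse complement, which contains CACGTG, and 5 windows held 4 or more CACGTG. Of the other members, 1 of the 8 windows of CD63 held CACGTG without that extension. CD68, SCARB2 and TMEM192 had 0. Read per gene, TCACGTG was in 3 of the 8 members with a window and in 4.49% of all genes. In lists described below it was in 9 of 30 hydrolases and 3 of 11 genes of the channel list with a window. It was also in 3 of 22 endoplasmic reticulum genes and 0 of 11 peroxisomal genes. CATGTG, a core sequence that MITF binds, was in a window of CD63, CD68, SCARB2 and CLCN7 when both strands were read, and in 11.1% of all windows. A match is a description of these letters and not a measured binding site, and a link to the rise was not tested. TMEM192, at a log2 fold change of 1.48, had none of the 3 motifs in its window, as did LAPTM4A at 0.14.

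The same comparison was made for other genes of the lysosome, in lists chosen with earlier results of these data known. The list of other channels and exchangers, which also counts the subunit OSTM1, had 11 tested genes. Of these 7 were higher, 3 were lower and 1 missed the threshold (median log2 fold change 0.63). CLCN5, a relative of CLCN7, rose (1.75 ± 0.11), as did CLCN3 (0.71 ± 0.05), while CLCN6 fell (-0.59 ± 0.05). MCOLN2 was low, at 3.28 and 4.13 CPM after abemaciclib and 2.52 and 2.32 CPM untreated (0.63 ± 0.19, edgeR adjusted p = 4.15e-03). It lost the call with DESeq2 (adjusted p = 0.111) and in edgeR without abemaciclib replicate 2 (adjusted p = 0.104). MCOLN3 reached at most 0.148 CPM. LAMP3 and LAMP5, the remaining family members of LAMP1, reached at most 0.148 CPM in any library. LAPTM5, the relative of LAPTM4A found in blood cells, stood at 0.415 and 0.384 CPM after abemaciclib and 1.44 and 1.37 CPM untreated.

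Of 21 other tested proteins of the lysosomal membrane 13 were higher, 7 were lower and 1 missed the threshold (median log2 fold change 0.36). GLMP, which stabilises the transporter MFSD1, rose furthest (2.84 ± 0.04), at 259.5 and 247.7 CPM after abemaciclib and 33.9 and 36.9 CPM untreated. Its partner MFSD1 rose as well (2.12 ± 0.05), and DRAM2 fell (-1.06 ± 0.05). Of 27 lysosomal transporters 15 were higher, 10 were lower and 2 missed the threshold (median 0.25, and 0.42 with mitochondrially encoded genes left out). The hexose transporter SLC2A6 rose (2.37 ± 0.08) and the lipid transporter ABCA2 fell (-1.06 ± 0.04). Of 20 tetraspanins other than CD63, 10 were higher, 5 were lower and 5 missed the threshold (median 0.11). That median was 0.28 with mitochondrially encoded genes left out, 0.065 with no filter, 0.061 with DESeq2 and 0.053 without abemaciclib replicate 2. TSPAN10 rose (3.65 ± 0.08) and TSPAN9 fell (-2.51 ± 0.04), so that family spread far to both sides of CD63.

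Transcripts for proteins of the lumen and for the proton pump were mostly higher, where 38.0% of all tested genes were higher. Of 44 tested soluble hydrolases and cofactors 38 were higher, 5 were lower and 1 missed the threshold (median log2 fold change 0.96). The acid phosphatase ACP5 (3.92 ± 0.06) and the acid ceramidase ASAH1 (2.98 ± 0.04) rose furthest, and GUSB fell (-1.20 ± 0.05). Of 22 subunits of the V-ATPase, the lysosomal proton pump, 18 were higher, 2 were lower and 2 missed the threshold (median 0.72). ATP6V0D2 rose furthest (5.81 ± 0.10), at 61.6 and 62.8 CPM after abemaciclib and 0.925 and 1.25 CPM untreated, followed by ATP6V0D1 (2.39 ± 0.04). The 2 that fell were ATP6V1B1 (-3.03 ± 0.18) and ATP6V0A2 (-0.60 ± 0.07). Of 21 MiT/TFE factors, genes that control them and genes tied to them in other ways 15 were higher, 2 were lower and 4 missed the threshold (median 0.58). TFEB itself stood at 7.76 and 7.52 CPM after abemaciclib, against 7.77 and 7.79 CPM untreated, and missed the threshold (-0.03 ± 0.12, edgeR adjusted p = 0.835). TFE3 was slightly higher (0.16 ± 0.04, and 0.33 with mitochondrially encoded genes left out), at 171.7 and 158.3 CPM after abemaciclib and 148.4 and 145.6 CPM untreated. TFEC, another factor of the family, was very low, at 1.12 and 0.9735 CPM after abemaciclib and 0.037 and 0.061 CPM untreated. It was higher (4.26 ± 0.59, edgeR adjusted p = 1.3e-07), but this rested on 1 and 2 counts untreated, against 27 and 33. TFEC under the alternative fits is not given here. MITF was low and higher (0.70 ± 0.19), at 3.49 and 4.81 CPM after abemaciclib and 2.74 and 2.44 CPM untreated. It lost the call with DESeq2 (adjusted p = 0.0678) and in edgeR without abemaciclib replicate 2 (adjusted p = 0.1). GPNMB, a glycoprotein known as a target of these factors and not as one of their controllers, rose (3.80 ± 0.04), as did the GTPase RRAGD (2.44 ± 0.09), and RRAGA fell (-1.17 ± 0.04).

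Genes that deliver proteins to the lysosome were also more often higher than lower, as were the genes of other organelles described below. Of all tested genes, 38.0% were higher and 39.3% were lower. Of 26 adaptor and sorting genes 19 were higher, 5 were lower and 2 missed the threshold (median 0.50). GNPTAB, which makes the mannose 6-phosphate tag, rose (2.21 ± 0.05), as did the sorting receptor SORT1 (1.67 ± 0.05), and the adaptor GGA1 fell (-0.73 ± 0.04). Of 27 genes of HOPS, BORC, RAB7 and vesicle fusion 18 were higher, 5 were lower and 4 missed the threshold (median 0.57), with VPS18 (1.61 ± 0.04) and PLEKHM1 (1.60 ± 0.04) up and VPS16 down (-0.73 ± 0.07). Of 18 partners and regulators of the members 12 were higher, 5 were lower and 1 missed the threshold (median 0.62). NEDD4, a ubiquitin ligase that LAPTM4 proteins bind, fell (-0.67 ± 0.06).

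Membrane proteins of other organelles were set beside these. Of 16 peroxisomal membrane proteins 12 were higher, 1 was lower and 3 missed the threshold (median 0.40). Of 26 proteins of the endoplasmic reticulum membrane 15 were higher, 8 were lower and 3 missed the threshold (median 0.34). At least 2-fold higher were 6 of the 10 members, 22 of the 44 hydrolases and 8 of the 22 V-ATPase subunits. The same held for 2 of the 16 peroxisomal and 2 of the 26 endoplasmic reticulum genes, and for 13.8% of all tested genes. These counts and medians are descriptions, and no test was made of one list against another.

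**Figure D4:**
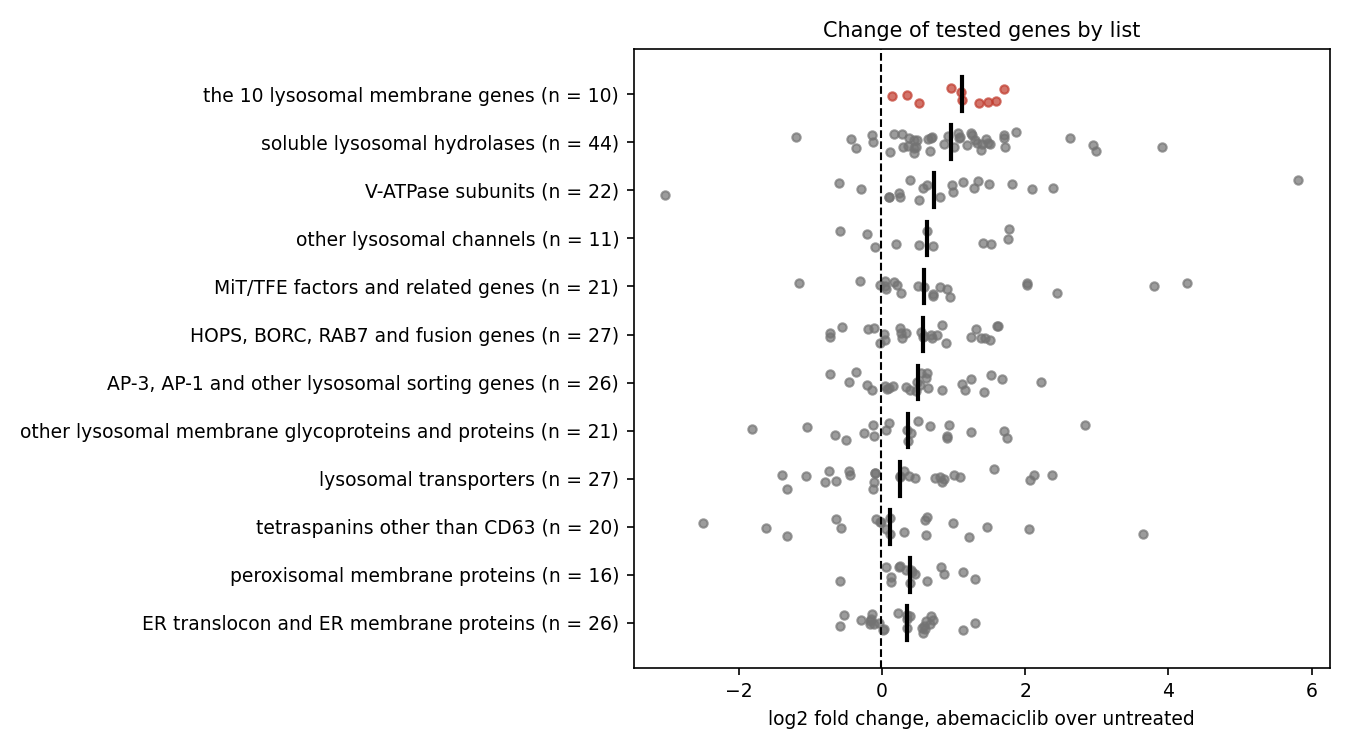
Log2 fold change, abemaciclib over untreated, of every tested gene in 12 lists (points; vertical bar, list median; dashed line, median of all tested genes at -0.01; vertical scatter is only for legibility). The 10 members run between 0.14 and 1.70 with none below 0, while the V-ATPase and tetraspanin lists hold genes on both sides of 0.

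CLCN7 had the largest log2 fold change of the 10. Over the 299 other tested genes of all lists, the 3 whose centred log2 profile over the 4 libraries lay closest to it included CTSD, the aspartic protease cathepsin D (Euclidean distance 0.0599), and SUMF1, which activates sulfatases (0.0630). CTSD stood at 1875 and 1878 CPM after abemaciclib, against 567.5 and 581.9 CPM untreated. SUMF1 stood at 122.0 and 123.5 CPM after abemaciclib, against 39.5 and 39.4 CPM untreated. Such likeness rests on 4 libraries in which 77.3% of tested genes differed between the groups.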

How the data were processed

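Poly-A RNA was measured in 4 libraries, 2 from spheres treated with abemaciclib and 2 from untreated spheres, grouped by their titles. RNA was isolated with Trizol and libraries were made by the TruSeq Stranded mRNA method, per the labels' protocols. The authors deposited expected counts per gene, which can divide a read among genes and were not scaled for depth or length. STAR 2.7.2b and RSEM 1.3.1 were used with GRCh38, per the submitters' processing notes. The annotation release and strand setting are not given in the sources used here. Expected counts were rounded and tested with edgeR 4.0.16 (limma 3.58.1, R 4.3.3): filterByExpr, TMM (factors 0.980 to 1.02), robust quasi-likelihood F test on group alone, two-sided, Benjamini-Hochberg adjustment over 17207 genes, threshold 0.05. A standard error is the size of the log2 fold change over √F. The procedure was tested on simulated data with 200 changed genes. In the real data 77.3% of tested genes passed, so that simulation does not gauge the scaling or the rate of false calls here. Each library counted as 1 sample. Replicates differed by more than sampling noise (chi-square per degree of freedom 1.95 for abemaciclib and 3.56 for untreated, genes with 20 or more counts in the pair). This does not show that they were separate cultures. The common dispersion, edgeR's estimate of spread between replicates beyond sampling noise, was 0.000818. Coordinates, overlaps and lengths came from GENCODE 29 on GRCh38, matched by identifier for 96.4% of genes. Promoter sequences came from RefSeq on GRCh38.p14.

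The members and the 16 lists were chosen with earlier results of these data known. The named genes were all members, close relatives and binding partners of members, and the genes of each list that rose or fell furthest among those past the threshold with a mean of at least 5 CPM, up to 2 each way, of which some are given. TMEM119, AIF1, PTPRC, CD163, VIM, CDKN2A and overlapping neighbours were named for the checks they serve. TFEB, TFE3, TFEC, MITF and ATP6V1B1 were added after their values were seen. Some genes that this rule names are not reported here. The alternatives were RLE size factors, scaling by library totals with and without mitochondrially encoded genes, no filter on low counts, DESeq2 1.42.0, leaving out each library, and a block for the replicate number.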

Additional observations from a re-analysis of the deposited data

How the results depend on the processing

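All 10 members stayed higher and past the threshold under all 10 alternatives. The highest adjusted p of LAPTM4A was 0.00344 (edgeR, without abemaciclib replicate 2), and its log2 fold change ran between 0.14 and 0.31. At least 2-fold higher were 6 or 7 members. DESeq2 called 5380 genes higher and 5351 lower, against 6542 and 6757 in the edgeR test. With mitochondrially encoded genes left out, 7780 were higher and 5534 lower, and the median over all genes was 0.16. The replicate block gave 6451 higher and 6657 lower and changed no call of a member. The labels do not say whether equal replicate numbers mark a shared batch. The differences between replicates 2 and 1 in the 2 groups had a correlation of -0.00143 over genes. With 1 such difference a group, this cannot settle the question.

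Counts in the other lists that moved by over 1.5 times were mostly of lower genes, and the cause was not tested. Scaling by library total left 3 lower in HOPS and fusion genes and 3 in hydrolases (5 each in the main test). Without mitochondrially encoded genes, lower genes numbered 1 among channels, 2 among partners, and 3 each in sorting genes, HOPS and fusion genes, hydrolases and endoplasmic reticulum genes, and 1 marker of the line was higher. With DESeq2, lower genes numbered 1 among channels, 5 in the endoplasmic reticulum list, and 3 each in partners, tetraspanins, sorting genes and HOPS and fusion genes, and 1 macrophage marker was higher. With 1 library left out, 3 to 5 HOPS and fusion genes were lower and 1 to 2 macrophage markers higher. Of the other genes named, with TFEC left aside, MCOLN2, MITF and PTPRC lost the call with DESeq2 and without 1 abemaciclib library. TFEB, past the threshold under no alternative, had a log2 fold change of 0.026 with library totals, 0.141 without mitochondrially encoded genes and -0.034 to 0.004 with 1 library left out, against -0.028. The medians that moved by over 1.5 times were those of tetraspanins (0.053 to 0.28, against 0.111) and transporters (up to 0.421, against 0.253).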
